A study of Drosophila melanogaster with 3 samples.

Results

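The sodium pump and the water channels of adult *Drosophila* nephrocytes were examined across 3 low-input RNA-seq libraries. The 9 genes were chosen by name, as *Atpalpha*, *nrv1*, *nrv2* and *nrv3* for the sodium pump and *Drip*, *Prip*, *bib*, *Eglp2* and *Eglp4* for the water channels, out of 17768 genes in the tables. The 3 libraries are replicates of a single condition, control females aged 4 days that carried *Hand*-GFP with *Klf15*-Gal4 and UAS-RFP over the CyO balancer, reared at 25 °C on food with 6% sucrose, so no comparison between groups was possible. *Hand*-GFP marks heart cells as well as nephrocytes, RFP was driven through a *Klf15* promoter fragment, and large cells positive for both colors were sorted from pooled flies. The study's methods give 200 flies for each replicate and the submitters' design text gives 100 to 200 nephrocytes. The p-values below therefore refer only to how consistently a ratio kept its direction across these 3 collections.

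Nephrocytes filter the hemolymph through a slit diaphragm and take up what passes it by endocytosis. The sodium pump is a membrane ATPase that exports sodium and imports potassium, and the gradients it makes power many other transporters. Its alpha subunit carries out catalysis, and its beta subunit is a glycoprotein that the alpha subunit needs to fold and to reach the plasma membrane. Aquaporins are channels that let water cross membranes, and the insect entomoglyceroporins (Eglp) also pass small solutes such as glycerol.

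Summed expected counts were 8801238, 7808930 and 8797916 in libraries 1, 2 and 3. Each pair of libraries differed far beyond sampling noise, with chi-square per degree of freedom of 33.0 to 80.3 where noise alone gives about 1. All 7 nephrocyte markers were at or above 1 TPM (transcripts scaled by length to 1000000 in each library) throughout, led by *Amnionless*, a receptor component for protein uptake, at 5794 ± 591 TPM and *Hand*, a heart and nephrocyte transcription factor, at 4697 ± 459 TPM (SD, n = 3). Among markers of other cells, 8 of 11 for muscle and heart reached that level, led by *Mlc2* and *Mlc1*, the muscle myosin light chains, at 1230.1 ± 591 and 1154 ± 484 TPM (SD, n = 3). Transcript length and the log2 difference of library 2 from the mean of libraries 1 and 3 had a Spearman's rho of -0.55 across 7193 genes. Longer transcripts thus tended to be lower in library 2, although some of the longest were higher there. These are bulk samples, in which fewer cells of a type and less RNA per cell cannot be told apart.

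The pump was present with its alpha subunit and all 3 of its *nrv* beta subunits, and the water channels were represented mainly by *Eglp2* and *Drip*. Detection required at least 1 TPM in each of the 3 libraries. By this rule 6 of the 9 genes were detected, namely the 4 pump genes, *Eglp2* and *Drip*, while 40.5% of all genes were. *Eglp4* was the 7th gene with more than 3 expected counts in all libraries, a level that 44.2% of all genes reached. The pump genes summed to 611, 352 and 665 TPM in libraries 1, 2 and 3, and the water channels to 57.4, 57.3 and 40.2 TPM. Pump RNA was thus 10.6-fold, 6.15-fold and 16.6-fold above water channel RNA in the 3 libraries.

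**Figure D1:**
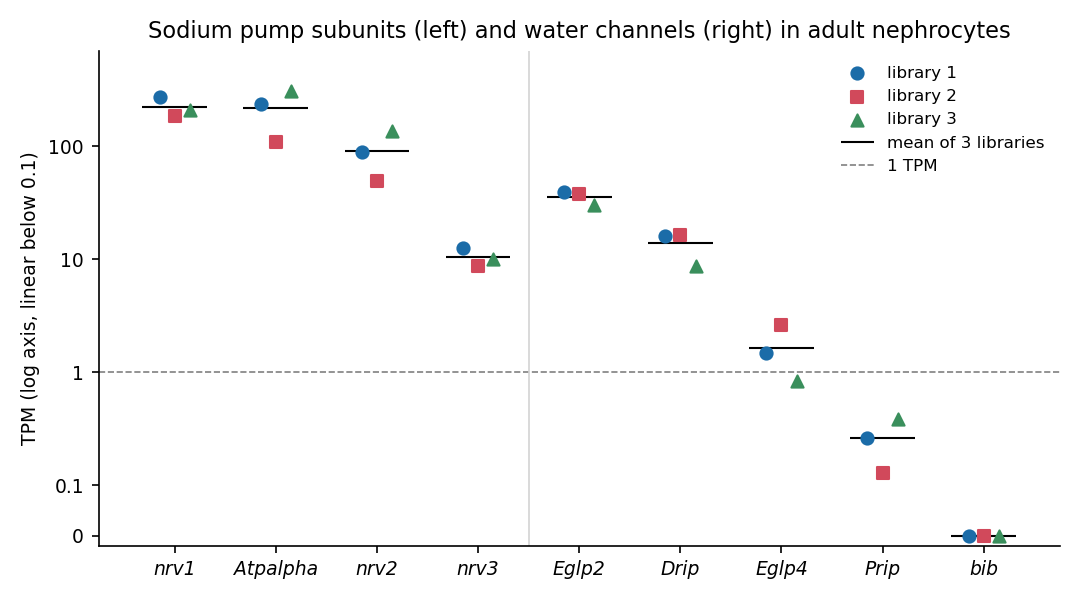
TPM of each gene (vertical axis, logarithmic and linear below 0.1) in libraries 1, 2 and 3, with the sodium pump on the left and the water channels on the right. Black lines mark the mean of the 3 libraries and the dashed line marks 1 TPM. The levels span from *nrv1* at a mean of 223 TPM to *bib* at 0 TPM.

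*Atpalpha* (FBgn0002921), which encodes the catalytic alpha subunit, had 235, 109 and 309 TPM in libraries 1, 2 and 3, from 7578, 3676 and 9784 expected counts. Library 2 was lowest and library 3 highest, a 2.82-fold range. Its mean of 218 ± 101 TPM (SD, n = 3) ranked 625th of the listed genes and lay above 91.3% of the detected genes, whose median was 20.9 TPM. The gene lies on chromosome 3R from 20948714 to 20976239 (+ strand, BDGP6.54 annotation) and had 11 transcripts in the files, of 3558 to 5545 bases with 9 to 11 exons. The length that RSEM averages over the transcripts in use was 4492, 4720 and 4447 bases in libraries 1, 2 and 3, so longer forms had slightly more weight in library 2. No other annotated gene overlapped its span.

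*nrv1* (FBgn0015776), which encodes a beta subunit, had 275, 185 and 210 TPM in libraries 1, 2 and 3, from 4065, 2714 and 3085 expected counts. Its libraries lay closer together than those of *Atpalpha*, with a 1.48-fold range. With a mean of 223 ± 46.4 TPM (SD, n = 3) it was the most abundant of the 9 genes and ranked 612th. The deposited length was 2195 bases in every library, which is the length of 1 of its 2 transcripts (the other has 1926 bases), so RSEM gave its reads to the longer form. *nrv1* lies on chromosome 2L from 6778555 to 6786861 (- strand).

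*nrv2* (FBgn0015777) encodes the beta subunit that, with the alpha subunit, is also a component of septate junctions in fly epithelia, and its regulatory sequences are widely used to mark glia. It had 88.4, 49.1 and 137 TPM in libraries 1, 2 and 3, from 1160, 639 and 1777 expected counts. The order of the libraries was that of *Atpalpha*, with library 3 highest and library 2 lowest, over a 2.79-fold range. The mean was 91.4 ± 43.9 TPM (SD, n = 3), the 1292nd rank. It is the neighbor of *nrv1* on the same strand of 2L, from 6789770 to 6798862 with 2908 bases between the genes, and its deposited length of 1969 to 1977 bases was near the short end of its 6 transcripts (1949 to 2668 bases).

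*nrv3* (FBgn0032946), a beta subunit gene known for its expression in the nervous system, had 12.6, 8.65 and 10.1 TPM in libraries 1, 2 and 3, from 209, 145 and 151 expected counts. The 3 libraries were close, within a 1.46-fold range. The mean of 10.5 ± 2.00 TPM (SD, n = 3) ranked 4968th and lay above 30.9% of the detected genes. It lies on chromosome 2L from 21380000 to 21393319 (+ strand).

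The beta subunit RNA was mostly *nrv1*. Its share of the TPM of the 3 *nrv* genes was 73.1%, 76.2% and 58.8% in libraries 1, 2 and 3, that of *nrv2* was 23.5%, 20.2% and 38.3%, and that of *nrv3* was 3.35%, 3.56% and 2.83%. *nrv1* exceeded *nrv2* by 3.11-fold, 3.77-fold and 1.53-fold. With 0.1 TPM added to each value its log2 ratio was 1.39 ± 0.68 (SD, n = 3), higher in 3 of 3 libraries. It exceeded *nrv3* by 21.8-fold, 21.4-fold and 20.8-fold, with a log2 ratio of 4.40 ± 0.04 (SD, n = 3). The ratio of *nrv1* to *nrv3* had the smallest spread between libraries of the 16 ratios computed among the pump genes and among the water channels. It was picked as the smallest and rests on 209, 145 and 151 expected counts of *nrv3*, so no tightly held ratio is read from it.

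The 3 beta subunit genes together exceeded *Atpalpha* in every library. Their sum was 376, 243 and 357 TPM in libraries 1, 2 and 3, which was 1.60-fold, 2.22-fold and 1.16-fold the TPM of *Atpalpha*. The log2 ratio of *Atpalpha* to the sum was -0.68 ± 0.47 (SD, n = 3; p = 0.25, adjusted p = 0.267 over 16 ratios, from a two-sided exact permutation test that flips signs). With 3 libraries this test cannot give a p below 0.25, so it could pass no ratio. In CPM, counts scaled to the library total and not corrected for transcript length, this ratio turned round to 0.51, because *Atpalpha* transcripts are longer than those of the *nrv* genes.

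The order of *Atpalpha* and *nrv1* was not settled by these libraries. *Atpalpha* was below *nrv1* in libraries 1 and 2, at 0.857-fold and 0.591-fold, and above it in library 3, at 1.47-fold. The log2 ratio was -0.14 ± 0.66 (SD, n = 3; p = 0.75 in the same exact permutation test, adjusted p = 0.75), and 0.17 without replicate 2. In deposited TPM *Atpalpha* kept a steadier ratio to *nrv2*, at 2.66-fold, 2.23-fold and 2.26-fold. The log2 ratio of *Atpalpha* to *nrv2* was 1.25 ± 0.14 (SD, n = 3). With the trend on transcript length removed from each library, *Atpalpha* had 209, 158 and 240 TPM in libraries 1, 2 and 3. *nrv2* then had 90.1, 51.5 and 127 TPM, so their ratio varied more. No tightly held ratio is read from it. Apart from *Atpalpha* over *nrv1*, the other 15 of the 16 ratios each had 1 sign in every library. Each gave p = 0.25 in the exact permutation test (adjusted p = 0.267).

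**Figure D2:**
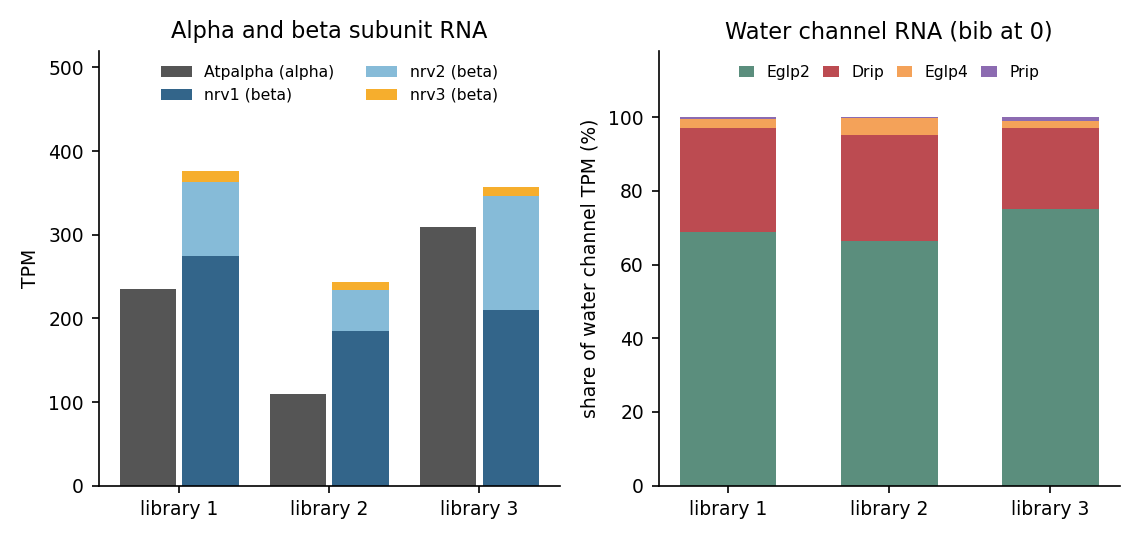
Left, TPM of *Atpalpha* (grey bars) beside the stacked TPM of *nrv1*, *nrv2* and *nrv3* in each library, both from 0. Right, share of each gene in the summed water channel TPM of each library, in percent. The beta stack is the taller in each of the 3 libraries, and *Eglp2* makes up 66.4% to 75.1% of water channel TPM.

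*Eglp2* (FBgn0034883), an entomoglyceroporin gene, was the most abundant water channel. It had 39.5, 38.1 and 30.2 TPM in libraries 1, 2 and 3, from 268, 256 and 203 expected counts, and the libraries lay within a 1.31-fold range. The mean of 35.9 ± 5.03 TPM (SD, n = 3) ranked 2594th and lay above 63.9% of the detected genes. The deposited length of 1138 bases in every library is that of the longer of its 2 transcripts (the other has 995 bases). Its span on chromosome 2R, from 23603722 to 23616754 (- strand), contains *Eglp3* and *Eglp4* on the same strand, but none of its exon bases are shared with either gene.

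*Drip* (FBgn0015872), a water-selective aquaporin known from the stellate cells of the Malpighian tubule, had 16.2, 16.5 and 8.79 TPM in libraries 1, 2 and 3, from 141, 167 and 91 expected counts. Library 3 stood below the other two. The mean was 13.8 ± 4.36 TPM (SD, n = 3), the 4448th rank. RSEM's averaged length was 1393, 1591 and 1619 bases in the 3 libraries, among 7 transcripts of 1180 to 1745 bases, so the mix of forms differed between library 1 and the others. *Drip* lies on chromosome 2R from 11411203 to 11429645 (- strand), 6597 bases from *Prip*.

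*Eglp4* (FBgn0034885) lay at the detection limit, with 1.49, 2.64 and 0.83 TPM in libraries 1, 2 and 3. These values rest on 10, 16 and 5 expected counts, each above 3 counts, the limit set by a count of 0. Library 3 alone kept it from being called detected. It lies inside the span of *Eglp2*, from 23607592 to 23614710 on 2R.

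*Prip* (FBgn0033635), an aquaporin gene next to *Drip*, had 2, 1 and 3 expected counts (0.26, 0.13 and 0.39 TPM) in libraries 1, 2 and 3. All 3 values are at or below 3 counts, the limit set by a count of 0. *Prip* RNA thus rested on few reads in each library and was not detected by the 1 TPM rule. *bib* (FBgn0000180), the aquaporin family gene big brain, known for its part in Notch signaling during neurogenesis, had no count in any library. For *bib* 3 counts correspond to 0.131, 0.132 and 0.131 TPM. These limits cover counting error only, since the reads come from amplified cDNA.

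Among the water channels *Eglp2* exceeded *Drip* by 2.44-fold, 2.31-fold and 3.43-fold in libraries 1, 2 and 3. With 0.1 TPM added its log2 ratio was 1.42 ± 0.31 (SD, n = 3), higher in 3 of 3 libraries. It exceeded *Eglp4* by 26.5-fold, 14.4-fold and 36.3-fold. From summed counts of 727 and 6, scaled by effective length, the ratio of *Eglp2* to *Prip* was 137 (95% exact binomial interval 62.7 to 375, which covers counting error only and not the spread between libraries). Taking *bib* at 3 counts per library, *Eglp2* was 230-fold above it in library 3, the smallest such fold. This fold leaves out the counting error of *Eglp2* itself, which had 203 expected counts there. *Eglp2* and *Drip* together made up nearly all water channel RNA, at shares of 70.1 ± 4.5% and 26.3 ± 3.8% (SD, n = 3).

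By mean TPM the order of the 9 genes was *nrv1*, *Atpalpha*, *nrv2*, *Eglp2*, *Drip*, *nrv3*, *Eglp4*, *Prip* and *bib*. *nrv1* and *Atpalpha*, as given above, changed places between libraries. So did *Drip* and *nrv3*, with *Drip* at 1.28-fold and 1.91-fold the TPM of *nrv3* in libraries 1 and 2 and at 0.869-fold in library 3. The step from *nrv2* to *Eglp2* kept its direction but varied, at 2.24-fold, 1.29-fold and 4.53-fold. The step from *nrv3* to *Eglp4* was 8.46-fold, 3.28-fold and 12.2-fold. *Prip* had counts in every library and *bib* had none, but both were at or under 3 counts, so no ratio between them was taken.

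Of the 6 detected genes 4 were lowest in library 2, beside 48.3% of all detected genes, a share that sets the members little apart. They were the 4 pump genes, of which *nrv3* had 145 and 151 expected counts in libraries 2 and 3. Set against the mean of libraries 1 and 3, the log2 ratio of library 2 was -1.31 for *Atpalpha*, -1.20 for *nrv2*, -0.39 for *nrv1* and -0.39 for *nrv3*, against a median of -0.14 over all detected genes. It was 0.40 for *Drip* and 0.13 for *Eglp2*. The pump transcripts are also the longer ones. Among detected genes within 0.15 of each gene's log2 length, 3.01% had a lower ratio than *nrv2*, 17.6% than *Atpalpha*, 28.2% than *nrv1*, 32.2% than *nrv3*, 55.2% than *Eglp2* and 90.2% than *Drip*. After the trend on length was removed from each library, the ratio was -0.50 for *Atpalpha*, -1.08 for *nrv2*, -0.23 for *nrv1*, -0.18 for *nrv3*, 0.36 for *Drip* and 0.02 for *Eglp2*, against a median of -0.01 over all detected genes. Then 2 of the 6 genes, *Atpalpha* and *nrv2*, were lowest in library 2, beside 36% of all detected genes, and *nrv1* and *nrv3* were not. *Atpalpha* then ranged 1.51-fold between libraries and *nrv2* 2.47-fold.

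**Figure D3:**
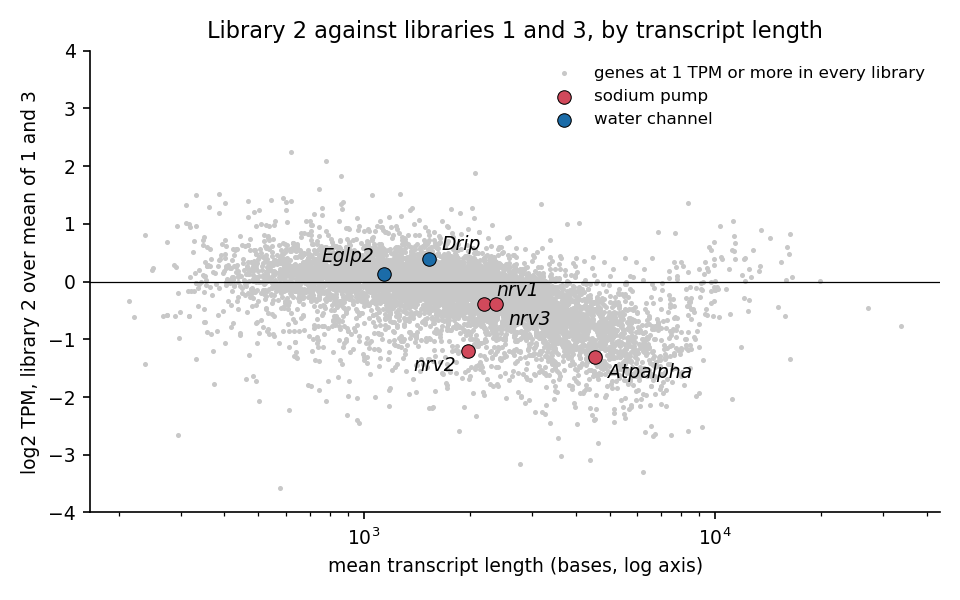
Log2 of TPM in library 2 over the mean of libraries 1 and 3 (vertical axis) against mean transcript length in bases (logarithmic horizontal axis), for the 7193 detected genes in grey. Red points are the 4 pump genes and blue points *Eglp2* and *Drip*. *Atpalpha* lies within the cloud of long transcripts, and *nrv2* lies toward the lower edge of genes of its length at -1.20.

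Muscle and heart markers moved in the same order as *Atpalpha* and *nrv2*, and their part in these values was not tested. *Atpalpha* and *nrv2* were 2 of 6 detected members that were highest in library 3 and lowest in library 2, beside 32.2% of all detected genes. The 11 muscle and heart markers summed to 5002, 2640 and 8458 TPM in libraries 1, 2 and 3, and 7 of the 8 that were detected had this order. Their median log2 ratio of library 2 was -1.11 both before and after removal of the length trend. The 8 detected muscle and heart markers had means from 3.32 TPM (*sls*, a giant sarcomere protein gene) to 1230.1 TPM (*Mlc2*), and the 3 not detected were *Act79B* at 0.90 TPM, *Act88F* with at most 3 counts and *fln* at 0 TPM. All 8 were lowest in library 2 after removal of the length trend. Without library 2, *Atpalpha* averaged 272 TPM and *nrv2* 113 TPM.

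Markers of other tissues ranged from 0 TPM in every library to levels above *Atpalpha*. Of 5 Malpighian tubule markers *Uro* was at 0 TPM and 3 had at most 3 counts in any library, *Uro* included. *Lkr*, the leucokinin receptor, had 2, 4 and 8 counts. Only *tsh*, a transcription factor gene that is not limited to that organ, was detected, at 2.97 ± 1.59 TPM (SD, n = 3), and the sum of the list was 3.40 ± 1.61 TPM (SD, n = 3). Of 6 neuron and glia markers, 4 had at most 3 counts in any library, among them *repo*, the defining gene of glia. *elav*, an RNA-binding protein gene of neurons, had 1.23, 0.87 and 1.95 TPM. Of this list *moody* alone was detected, a receptor gene of the glial blood-brain barrier at 53.5 ± 13.4 TPM (SD, n = 3). It had 54.6, 39.5 and 66.3 TPM in libraries 1, 2 and 3, the order of *nrv2* and of 32.2% of all detected genes. The log2 ratio of library 2 for *moody* was -0.61. With the length trend removed it was -0.04, where *nrv2* had -1.08. The part of *moody* in the *nrv2* values was not tested. Hemocyte markers reached 1 TPM in every library for 3 of 8, led by the scavenger receptor gene *crq* at 352 ± 42.8 TPM and the GATA factor gene *srp* at 121 ± 56.9 TPM (SD, n = 3). *He*, the other detected gene, had 6.66 ± 4.32 TPM (SD, n = 3). The rest of this list was not detected. *Hml*, *eater*, *Pxn* and *PPO1* had at most 1 count in any library, and *NimC1* averaged 0.93 TPM. Of 4 midgut markers *Amy-p*, an amylase gene, was detected at 2.59 ± 1.48 TPM (SD, n = 3), and *alphaTry*, a trypsin gene like *betaTry*, was at 0. No fat body, trachea or ovary marker was detected, with list sums of at most 3.18, 5.80 and 0.05 TPM in any library. The highest of these were the yolk protein genes *Yp1* and *Yp2* at 0.85 and 0.81 TPM, *btl*, an FGF receptor gene, and *serp*, a chitin deacetylase gene, at 2.43 and 0.80 TPM, and *osk* at 0.017 TPM (means of 3 libraries), with *nanos* and the other ovary markers at 0.

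Paralogs of both families were low or at 0 TPM. *JYalpha*, an alpha subunit gene known for its role in male fertility, had 2.20, 3.65 and 4.47 TPM in libraries 1, 2 and 3, from 48, 79 and 97 expected counts in these female samples. It was detected in every library and was lowest in library 1. *Atpalpha* exceeded it by 30.0-fold to 107-fold. The beta-like genes *CG11703*, *CG5250* and *CG33310* were at 0 TPM in all libraries. *Eglp3* was also at 0 TPM, and *Eglp1* had a single count in library 1. All 27 expected counts of the 9 genes were whole within 0.005, so no division of reads with other genes showed in them.

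Of 3 other cation pumps of the same P-type ATPase family all were detected, beside 40.5% of all genes. *PMCA* was near *Atpalpha* in level and *SERCA* above it. *SERCA*, which returns calcium to the endoplasmic reticulum, had 402, 194 and 654 TPM in libraries 1, 2 and 3, or 1.71-fold, 1.77-fold and 2.12-fold the TPM of *Atpalpha*. *PMCA*, which exports calcium across the plasma membrane, had 199, 149 and 228 TPM and changed places with *Atpalpha*, at 0.844-fold, 1.36-fold and 0.737-fold. *SPoCk*, a calcium pump of the secretory pathway, averaged 6.06 ± 2.18 TPM (SD, n = 3). All 3 were highest in library 3 and lowest in library 2, beside 32.2% of all detected genes. The log2 ratio of library 2 for *SERCA* was -1.45, and -0.70 with the length trend removed. With that trend removed 1 of the 3 was lowest in library 2, beside 36% of all detected genes. The part of muscle and heart RNA in the *SERCA* values was not tested. The proton pump stood higher in level. All 8 V-ATPase genes examined were detected, beside 40.5% of all genes. Their median was 566 TPM, and 7 of them exceeded *Atpalpha* in every library. They were led by *Vha16-1*, a membrane subunit, at 1747 ± 162 TPM and *Vha68-2*, a catalytic subunit, at 712 ± 139 TPM (SD, n = 3).

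Of 9 sodium exchangers and cotransporters 6 were detected, beside 40.5% of all genes, and the median among those detected was 60.6 TPM. *Nha2*, a sodium/proton antiporter gene, led with 234, 227 and 267 TPM in libraries 1, 2 and 3, followed by *Ndae1*, an anion exchanger gene that depends on sodium, at 110, 58.6 and 102 TPM. *Nha2* was close to *Atpalpha* by its mean of 243 ± 21.5 TPM (SD, n = 3) and ranged less between libraries. *Nckx30C*, *Nha1* and *NaPi-T* were not detected. All 6 detected genes of this list were lowest in library 2, beside 48.3% of all detected genes, with a median log2 ratio of -0.73. With the length trend removed 2 of the 6 were, beside 36% of all, and the median was -0.13.

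**Figure D4:**
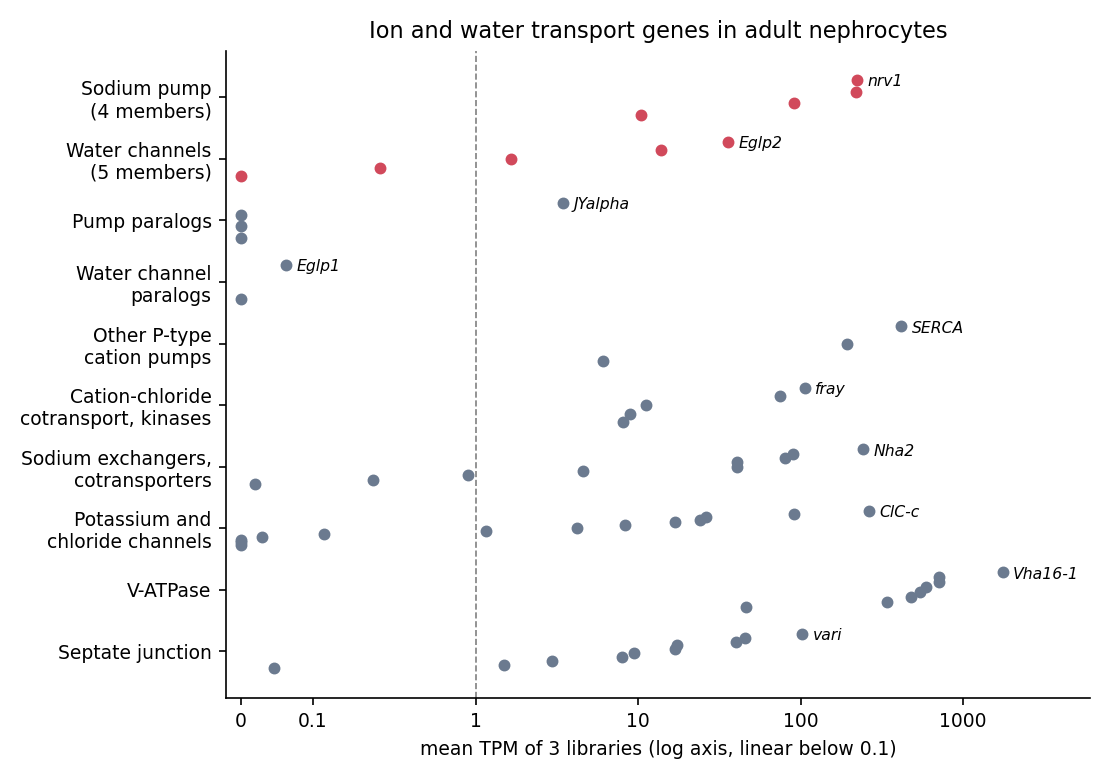
Mean TPM over the 3 libraries (horizontal axis, logarithmic and linear below 0.1) of each gene in the lists of ion and water transport, with the pump and water channel genes in red and the highest gene of each list named. The dashed line marks 1 TPM. The pump genes lie within the range of the other P-type pumps and below most V-ATPase genes.

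The genes whose TPM profile over the 3 libraries was nearest to that of *nrv1* were *CG31689*, *Irc* and *puml*, at Euclidean distances of 0.13, 0.16 and 0.19 on the log2(TPM + 1) scale. *CG31689* had 274, 192 and 228 TPM in libraries 1, 2 and 3. For *Eglp2* the nearest were *Efr*, *GstT1* and *CG8051*, at distances of 0.11, 0.12 and 0.18. *Efr* had 40.6, 39.7 and 31.9 TPM. With 3 libraries of 1 condition this measure reflects mainly a similar level.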

How the data were processed

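RNA of sorted adult nephrocytes was reverse transcribed and amplified with a low-input kit and sequenced by the authors on a NovaSeq platform. Alignment by the authors was with STAR 2.7.5c and quantification with RSEM 1.3.3, on FlyBase annotation 6.28 of BDGP Release 6. For read filters and strand setting, nothing is given in the sources used here. Expected counts were deposited as RSEM's estimates of reads per gene, with no normalization. The deposited TPM values, made by the authors with RSEM, are scaled by effective length to 1000000 per library. The deposited FPKM values, scaled by the authors by effective length and mapped fragments, served as an alternative for ranks and detection.

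Symbols were matched by gene ID for 17671 of 17768 IDs, and 3 listed symbols through older names or IDs. *CG8663*, an alias of *nrv3*, was dropped from the paralog list. Coordinates, transcript lengths and overlaps are from BDGP6.54 (Ensembl release 115), and transcripts in use in the files were matched to it by ID. No sequences were used here.

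Levels are means and SD of TPM. Ratios were taken within libraries as log2(TPM + 0.1), tested by an exact permutation test (two-sided, flipping signs) with Benjamini-Hochberg adjustment over 16 ratios. *Prip* over *bib* was left out because both were at or under 3 counts. Folds without an added value were used where both genes had more than 3 counts in every library. The length trend was a lowess fit per library (fraction 0.3) over 7251 genes with 10 or more counts in all libraries. On simulated libraries of 7251 genes, with a straight-line trend on log2 length placed in library 2, it brought Spearman's rho from -0.69 to -0.03. Log2 changes of 1 and -1 in library 2 were recovered as 1.03 and -1.04. The simulation covers a trend of that shape only. Alternatives were CPM, FPKM, TMM (edgeR 4.0.16) and DESeq2 1.42.0 scaling of counts rounded to whole numbers, TPM without mitochondrial and ribosomal RNA genes, other thresholds and pseudocounts, medians, and each replicate left out.

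The genes and lists were chosen with earlier results of these data known. Genes named are the 9 members, all paralogs, the 2 highest of each of 8 transport and 9 marker lists (54 and 55 genes), and the 3 nearest in profile to the highest pump gene and water channel. Others (*sls*, *Act79B*, *ClC-a*, *Best1*, *Act88F*, *fln*, *repo*, *Uro*, *Lkr*, *elav*, *He*, *Hml*, *eater*, *Pxn*, *PPO1*, *NimC1*, *SPoCk*, *NaPi-T*, *Nha1*, *Nckx30C* and the genes at 0 in other lists) were named after their values were seen. Software was Python 3.11.15 with statsmodels 0.14.6, scipy 1.17.1, pandas 2.3.3 and numpy 2.4.6, and R 4.3.3.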

Additional observations from a re-analysis of the deposited data

How the results depend on the processing

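Of 125 alternatives for the 16 ratios, 122 kept their direction, but most of them could not have turned a ratio. For the 15 ratios with 1 sign in every library, leaving out a replicate, medians and other pseudocounts cannot change the sign. Removing the length trend left the mean log2 ratios nearly unchanged. The count of 122 therefore says little beyond the CPM alternatives. The log2 ratio of *Atpalpha* to the summed *nrv* genes turned to 0.51 in CPM, and that of *Atpalpha* to *nrv1* to 1.00, as CPM is not corrected for length. Without 1 replicate, *Atpalpha* over *nrv1* ranged from -0.49 to 0.17, the 0.17 being without replicate 2. Leaving out 1 replicate, *Atpalpha* over the summed *nrv* genes ranged from -0.91 to -0.44, *nrv1* over *nrv2* from 1.13 to 1.77 and *Eglp2* over *Drip* from 1.24 to 1.52. The number of detected members was 8 and 7 at 0.1 and 0.5 TPM, 6 at 5 TPM and 4 at 10 TPM, 7 above 3 counts in every library, 7 without replicate 3, and 6 without replicate 1 or 2 and by 1 FPKM or 1 CPM. Of 72 alternatives for mean TPM, 71 stayed within 1 SD, a wide limit for *Atpalpha*. With 3 libraries a median or a mean without 1 replicate cannot pass that limit, and *bib* was at 0 throughout. These alternatives were thus no check. *Eglp2* moved to 42.1 TPM without mitochondrial and ribosomal RNA genes. In CPM, *Atpalpha* ranked 181st, *nrv1* 454th, *Eglp2* 3783rd and *nrv3* 4472nd. The difference of library 2 kept its direction for all 6 detected members in all 24 alternatives, and moved by more than the typical SD of detected genes (0.28) only for *Atpalpha*, with the length trend removed. Depth limits *Prip*, *bib* and *Eglp4*. No paired analysis was possible because the series holds 1 group.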

Other observations

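Of 13 potassium and chloride channel genes 7 were detected, beside 40.5% of all genes, and their levels differed widely. *ClC-c* and *ClC-b*, chloride channel family genes, had 260, 239 and 286 TPM and 90.9, 88.6 and 91.7 TPM in libraries 1, 2 and 3, and *ClC-b* differed little between libraries, at 90.4 ± 1.62 TPM (SD, n = 3). *Best1*, a bestrophin chloride channel gene, had 27.3, 28.7 and 23.0 TPM, and *ClC-a* had 8.76, 2.42 and 13.7 TPM. The inward rectifier potassium channel gene *Irk1* had 24.4, 14.2 and 12.0 TPM, while *Irk2*, *Ork1* and *Task6* were at 0 TPM in every library. All 5 genes of cation-chloride cotransport and its kinases were detected, beside 40.5% of all genes. They were led by *fray*, a kinase that acts on these cotransporters, at 106 ± 18.5 TPM (SD, n = 3). Next was *kcc*, the potassium-chloride cotransporter gene, at 74.6 ± 23.2 TPM (SD, n = 3). All 5 were lowest in library 2, beside 48.3% of all detected genes, with a median log2 ratio of -0.99. With the length trend removed 3 of the 5 were, beside 36% of all, and the median was -0.23.

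Of 10 genes of the septate junction, in which *Atpalpha* and *nrv2* also take part in fly epithelia, 8 were detected. This stands beside 40.5% of all genes, and the median of the 8 was 17.1 TPM. *vari*, a scaffold protein gene, had 130, 71.9 and 104 TPM and *Nrg*, an adhesion molecule gene, 50.4, 29.6 and 57.2 TPM in libraries 1, 2 and 3. *Lac*, another adhesion molecule gene of this junction, had 2 counts in library 1 and none in the others. The median log2 ratio of library 2 for the 8 detected genes was -0.71, and -0.04 with the length trend removed.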
